A study of Mus musculus with 16 samples.

Results

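Livers lacking TRAF2 and caspase-8 in their parenchymal cells were compared with livers that in addition lacked RIPK3, to ask what the loss of the necroptosis kinase changed in that setting. The 2 groups were chosen by sample title and hold 8 of the 16 arrays of the series, 4 for each genotype. Whole livers of 7-day-old males, on a mixed C57/BL6 and SV129Ola background, supplied total RNA for one-colour whole-transcript arrays, with 1 array per animal. In both groups floxed Traf2 and Casp8 were deleted by alfp-Cre, a transgene that is active in liver parenchymal cells (hepatocytes and bile duct cells). The second group carried a constitutive Ripk3 deletion on top, which removes RIPK3 from every cell of the animal, leukocytes included. Wild-type (WT) arrays came from littermates with floxed alleles but no Cre, and a further genotype carried a parenchymal deletion of Ikbkb (IKKβ) in place of that of Ripk3. Values are deposited log2 signals, so a difference of 1 is 2-fold.

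RIPK3 is a kinase that, when caspase-8 does not restrain it, phosphorylates MLKL and so drives necroptosis, a lytic form of cell death that releases cell contents. TRAF2 sits at the TNF receptor, where it recruits the inhibitor of apoptosis proteins, and helps to keep the death complexes in check. Liver parenchymal cells express little RIPK3 in health, whereas macrophages and other leukocytes express it readily.

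Ripk3 itself (chromosome 14) read 5.86, 5.66, 5.62 and 6.2 in replicates 1 to 4 labelled TRAF2/Casp8 KO and 4.23, 4.40, 4.16 and 4.07 in replicates 1 to 4 labelled RIPK3 triple KO. The 2 groups did not overlap, and the difference of −1.62 ± 0.18 (SE, n = 4 per group) passed the threshold (limma adjusted p = 0.000462). The genes deleted in both groups did not pass. Casp8 read 8.85 to 9.03 in the first group and 8.50 to 8.81 in the second (difference −0.26, adjusted p = 0.44), against 9.76 to 10.07 in WT. Traf2 went against its label in both. It read 7.07 to 7.44 and 7.18 to 7.53 (difference 0.02, adjusted p = 0.961), above the 6.21 to 6.40 of WT, and whether its probes lie outside the deleted exons was not checked. The arrays are therefore named by their labels: the TRAF2/Casp8-labelled and the RIPK3-labelled arrays, and likewise the IKKβ-labelled ones, in which Ikbkb read 7.07 to 7.30 against 7.50 to 8.06 elsewhere.

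Across the array, 94 of 35556 probe sets (0.264%) passed an adjusted p of 0.05 by limma, 47 higher and 47 lower in the RIPK3-labelled arrays, and 77 higher and 45 lower after each array was centred on its median. Taken as genes, 62 of 18820 (0.329%) passed, 34 higher (0.181%) and 28 lower (0.149%), and 26 of them differed at least 2-fold. The median difference of all genes was 0.00, with 9330 above 0 and 9490 below. With RIPK3-labelled replicates 1 to 4 left out in turn, the count of probe sets was 53, 66, 43 and 53. With TRAF2/Casp8-labelled replicates 1 to 4 left out in turn, it was 49, 89, 59 and 39. TRAF2/Casp8-labelled replicate 4 is the 1 array with another name prefix. Genotype and plate row, as read from the array names, cannot be told apart here, and the same holds for loss of RIPK3 and any other difference between the mouse lines.

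The 62 genes fell into 2 kinds by where the other genotypes lay. In 32 of them, 18 higher and 14 lower, all 4 RIPK3-labelled arrays lay outside the range of the 12 other arrays of the series, which 182 of all genes did (0.967%). In the other 30 at least 1 RIPK3-labelled array lay within the range of those 12. All but 1 of the 62 (Cx3cr1) had RIPK3-labelled arrays wholly above or below the TRAF2/Casp8-labelled ones, as did 1293 of all genes (6.87%). For reading the WT values, 623 genes (3.31%) passed between the TRAF2/Casp8-labelled arrays and WT, 585 (3.11%) between the RIPK3-labelled arrays and WT, and 377 (2%) between the RIPK3-labelled and IKKβ-labelled arrays. These comparisons share arrays, so their values are set side by side and no overlap is counted.

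Among the rises, Akr1c18, Cyp2c29, Mettl7b, Apoc3 and Dubr were low in the TRAF2/Casp8-labelled arrays and closer to WT in the RIPK3-labelled ones. Akr1c18, a steroid dehydrogenase that inactivates progesterone, read 6.33, 9.17, 5.81 and 7.35 in TRAF2/Casp8-labelled replicates 1 to 4 and 10.64, 10.16, 10.16 and 9.72 in RIPK3-labelled replicates 1 to 4, with WT at 9.54 to 10.74. The TRAF2/Casp8-labelled arrays were lower and far more scattered (SD 1.48) than the other groups, and the rise was 3.01 ± 0.55 (adjusted p = 0.0338). Its difference between RIPK3-labelled arrays and WT was −0.08 (adjusted p = 0.971). Cyp2c29, a pericentral cytochrome P450 of drug metabolism, read 6.64, 6.14, 6.28 and 4.87 against 8.48, 8.57, 7.79 and 8.28, with WT at 8.03 to 9.08. That is a rise of 2.30 ± 0.42 (adjusted p = 0.0374). Mettl7b, a membrane-bound methyltransferase of hepatocytes, had the tightest groups of the set. It read 8.55, 8.46, 8.84 and 8.26 against 9.65, 9.93, 9.99 and 9.81, a rise of 1.32 ± 0.11 (adjusted p = 1.69e-05), and WT lay at 10.16 to 10.26. Apoc3, an apolipoprotein that slows the clearance of triglyceride-rich particles, read 9.54 to 9.996 against 10.71, 10.33, 10.91 and 10.91, a rise of 0.94 ± 0.16 (adjusted p = 0.0198), with WT at 10.83 to 11.21. Dubr, a long non-coding RNA, rose by 1.19 (adjusted p = 0.00304), with RIPK3-labelled arrays at 4.45 to 4.68 and WT at 3.82 to 4.60. Akr1c18 kept its call only without TRAF2/Casp8-labelled replicate 2, and Cyp2c29 only without replicate 1 of that group; leaving out another array raised the adjusted p to as much as 0.11 and 0.119. That of Apoc3 was lost without RIPK3-labelled replicate 1, 3 or 4 or TRAF2/Casp8-labelled replicate 3 or 4 (up to 0.0893). Those of Mettl7b and Dubr held with each of the 8 arrays left out.

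**Figure D1:**
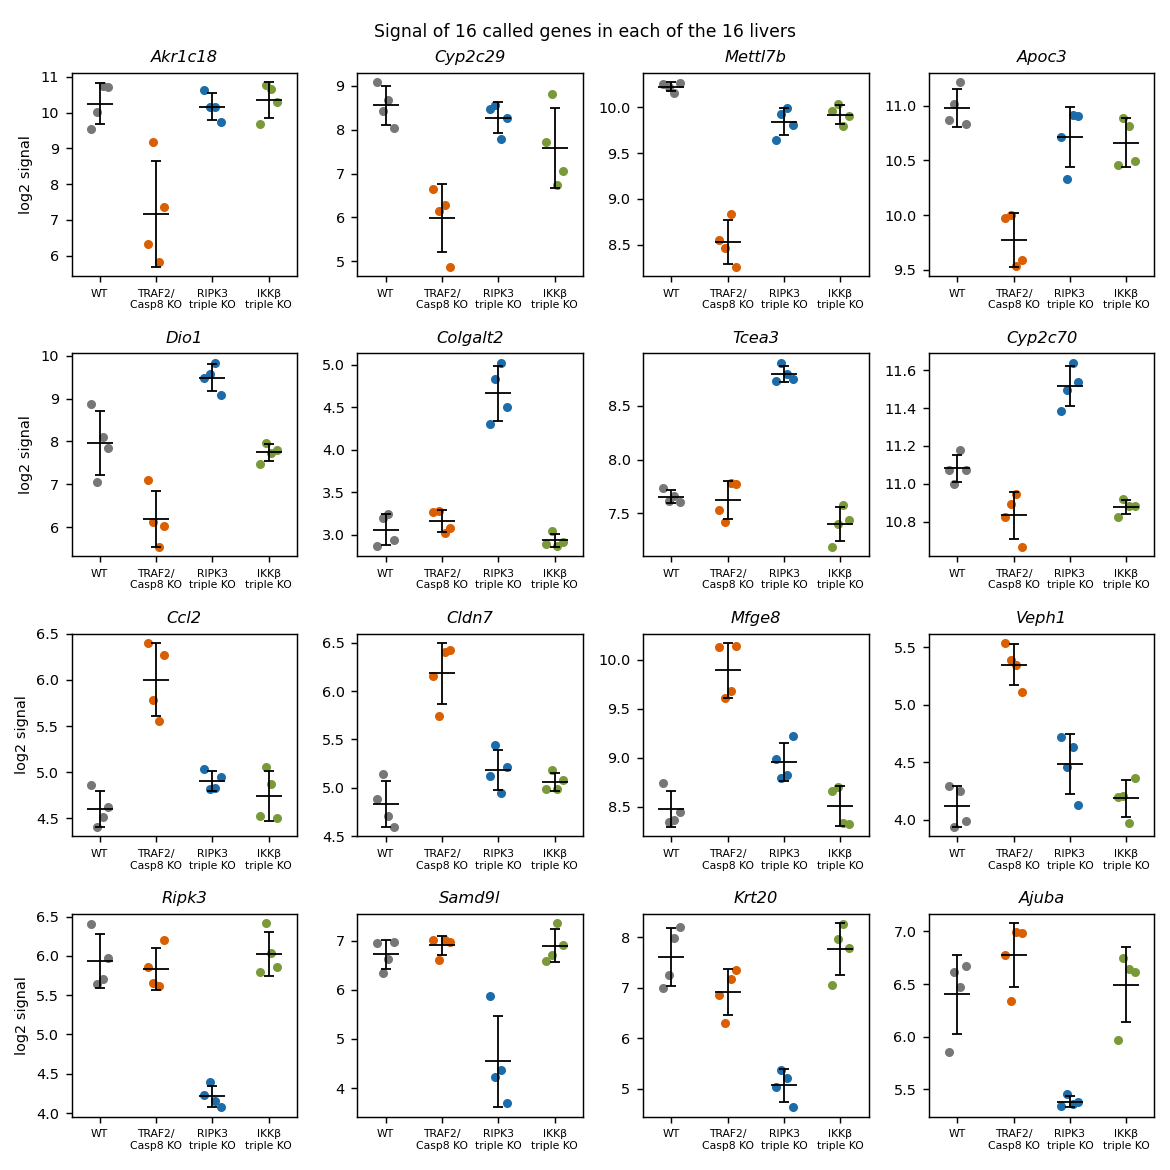
Log2 signal (vertical axis, a separate scale in each panel) of 16 genes that passed, in the 4 animals of each labelled genotype (points, replicates 1 to 4 from left to right), with mean and SD. In the panels of Akr1c18, Cyp2c29, Mettl7b, Apoc3, Ccl2, Cldn7, Mfge8 and Veph1 the TRAF2/Casp8-labelled arrays stand apart. In those of Colgalt2, Tcea3, Cyp2c70, Ripk3, Samd9l, Krt20 and Ajuba the RIPK3-labelled arrays do. Dio1 is low in the TRAF2/Casp8-labelled and high in the RIPK3-labelled arrays. For Cyp2c70 the TRAF2/Casp8-labelled arrays also lie below WT.

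A second group of rises went past every other array of the series. Dio1 encodes the liver deiodinase that turns thyroxine into the active thyroid hormone. It read 7.09, 6.13, 5.54 and 6.04 in the TRAF2/Casp8-labelled arrays and 9.47, 9.57, 9.84 and 9.07 in the RIPK3-labelled ones, a rise of 3.29 ± 0.34 (adjusted p = 0.000234). WT lay between these groups at 7.06 to 8.87, so the TRAF2/Casp8-labelled arrays were lower than WT (−1.77, adjusted p = 0.0117) and the RIPK3-labelled arrays higher (1.52, adjusted p = 0.0305). Colgalt2, a galactosyltransferase of collagen, read 3.27, 3.28, 3.03 and 3.08 against 4.31, 4.83, 5.03 and 4.5, a rise of 1.5 ± 0.14 (adjusted p = 5.43e-05), while the 8 WT and IKKβ-labelled arrays read 2.87 to 3.25. Tcea3, a transcription elongation factor, read 7.53, 7.42, 7.78 and 7.77 against 8.73, 8.90, 8.80 and 8.75 (1.17 ± 0.10, adjusted p = 1.69e-05), with WT at 7.61 to 7.74. Gdpd3, a lysophospholipase D, rose by 1.56 ± 0.23 (adjusted p = 0.00871), from 4.07 to 4.68 up to 5.42 to 6.71. Cmtm8, a MARVEL-domain membrane protein, rose by 1.05 (adjusted p = 0.00256), and Cth, the enzyme that makes cysteine from cystathionine, by 1.01 (adjusted p = 0.0302). Cyp2c70, the enzyme that makes the muricholic acids of mouse bile, read 10.82, 10.89, 10.95 and 10.67 against 11.39, 11.50, 11.64 and 11.54 (0.68 ± 0.08, adjusted p = 0.000716), and the WT arrays lay between at 11.00 to 11.18. The calls of Dio1, Colgalt2, Tcea3, Gdpd3, Cmtm8 and Cyp2c70 held with each array left out, although Gdpd3 lost its call in the fit on the 8 arrays alone (0.102). That of Cth was lost without RIPK3-labelled replicate 2, 3 or 4 or TRAF2/Casp8-labelled replicate 2 or 4 (up to 0.122). It was lost in the fit on the 8 arrays alone as well.

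Other rises did not go past every other array of the series. Cyp2f2, a periportal cytochrome P450, read 8.23, 7.87, 8.84 and 7.34 against 9.52, 9.76, 10.30 and 10.58 (1.97 ± 0.38, adjusted p = 0.0448), and B3galt1, a galactosyltransferase, rose by 1.74 ± 0.30 (adjusted p = 0.0274). Gnmt, which disposes of excess methyl groups in hepatocytes, rose by 1.01 (adjusted p = 0.0361), and Extl1, a glycosyltransferase of the exostosin family, by 1.06 (adjusted p = 0.00902). In each the RIPK3-labelled arrays overlapped the range of at least 1 other genotype. The call of Cyp2f2 was lost without any of the 8 arrays but TRAF2/Casp8-labelled replicate 3 (up to 0.166) and without WT replicate 1, and that of Gnmt without any but RIPK3-labelled replicate 2 (up to 0.141). That of B3galt1 was lost without RIPK3-labelled replicate 2, 3 or 4 or TRAF2/Casp8-labelled replicate 3 or 4 (up to 0.108), and that of Extl1 held.

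Among the falls, Ccl2, Cldn7 and Mfge8 were high in the TRAF2/Casp8-labelled arrays and lower in the 3 other genotypes. Ccl2, the chemokine that draws monocytes, read 6.40, 5.79, 5.56 and 6.28 against 5.04, 4.81, 4.82 and 4.94 (−1.10 ± 0.18, adjusted p = 0.0154), with WT at 4.41 to 4.87. Cldn7, a claudin of tight junctions, read 6.16, 5.74, 6.40 and 6.43 against 5.13, 5.45, 4.95 and 5.21 (−1.0 ± 0.15, adjusted p = 0.0117), with WT at 4.59 to 5.14. Mfge8, a secreted protein that bridges dying cells to phagocytes, read 10.13, 9.61, 9.69 and 10.14 against 8.99, 8.80, 8.83 and 9.22 (−0.93 ± 0.15, adjusted p = 0.0154), with WT at 8.35 to 8.75. In all 3 genes the TRAF2/Casp8-labelled arrays lay above every array of the 3 other genotypes. Veph1, a pleckstrin-homology protein, fell by 0.86 (adjusted p = 0.0148) and Shisa3, an antagonist of Wnt and FGF receptors, by 1.01 (adjusted p = 0.00839). Cyp1b1, a cytochrome P450 induced through the aryl hydrocarbon receptor, fell by 1.07 on the log2 scale (adjusted p = 0.0178), although its other probe set gave −0.39 (adjusted p = 0.296). Without RIPK3-labelled replicate 3 the calls of Ccl2, Cldn7, Mfge8 and Cyp1b1 were lost, as they were without TRAF2/Casp8-labelled replicate 4 (adjusted p up to 0.0717, 0.0549, 0.0711 and 0.0764). TRAF2/Casp8-labelled replicate 1 was needed for Ccl2, Mfge8, Cyp1b1 and Veph1 (the last 0.0553 without it), RIPK3-labelled replicate 2 for Mfge8 and Cyp1b1, and TRAF2/Casp8-labelled replicate 3 for Cyp1b1. That of Shisa3 held with each array left out but was lost in the fit on the 8 arrays alone (0.0733). The calls of Ccl2, Cldn7, Mfge8, Veph1 and Cyp1b1 were lost in that fit too.

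Beside Ripk3, the falls of Samd9l, Krt20, Krt23, Ajuba and Rpa3 went below every array of the other genotypes. Those of Dab1 and Rab3d did not. Samd9l, an interferon-inducible inhibitor of growth and viral replication, read 7.01, 6.61, 7.02 and 6.97 against 5.87, 4.23, 4.37 and 3.70 (−2.36 ± 0.34, adjusted p = 0.00743), with WT at 6.35 to 6.97. RIPK3-labelled replicate 1 lay nearest to the other genotypes. Krt20 and Krt23 encode acidic keratins of epithelial cells. Krt20 read 6.86, 6.30, 7.18 and 7.35 against 5.04, 5.38, 5.22 and 4.63 (−1.85 ± 0.31, adjusted p = 0.0199), and Krt23 read 7.02, 6.22, 6.27 and 6.89 against 4.91, 4.84, 4.82 and 4.60 (−1.81 ± 0.34, adjusted p = 0.0431). Their WT arrays lay at 7.00 to 8.21 and 6.0 to 6.97. Ajuba, a LIM protein of adherens junctions and the Hippo pathway, read 6.78, 6.34, 6.99 and 6.98 against 5.34, 5.46, 5.36 and 5.38 (−1.39 ± 0.20, adjusted p = 0.00737), with WT at 5.86 to 6.67. Rpa3, the small subunit of the single-stranded DNA binding complex RPA, fell by 0.96 (adjusted p = 0.000731), although its other probe set gave −0.34 (adjusted p = 0.305). Dab1, the adaptor of reelin receptors, fell by 2.31 (adjusted p = 0.0104), from 6.77 to 7.55 down to 4.60 to 5.19, with WT spread over 4.97 to 6.66. Rab3d, a GTPase of secretory granules, fell by 0.85 (adjusted p = 0.0269). The calls of Samd9l, Ajuba, Rpa3 and Dab1 held with each array left out. That of Samd9l was lost in the fit on the 8 arrays alone (0.101), as was that of Rab3d. Krt23 failed whichever of the 8 arrays was left out (up to 0.164). The call of Krt20 was lost without all but RIPK3-labelled and TRAF2/Casp8-labelled replicate 2 (up to 0.0893), and that of Rab3d without all but RIPK3-labelled replicate 4 and TRAF2/Casp8-labelled replicate 1 (up to 0.114).

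**Figure D2:**
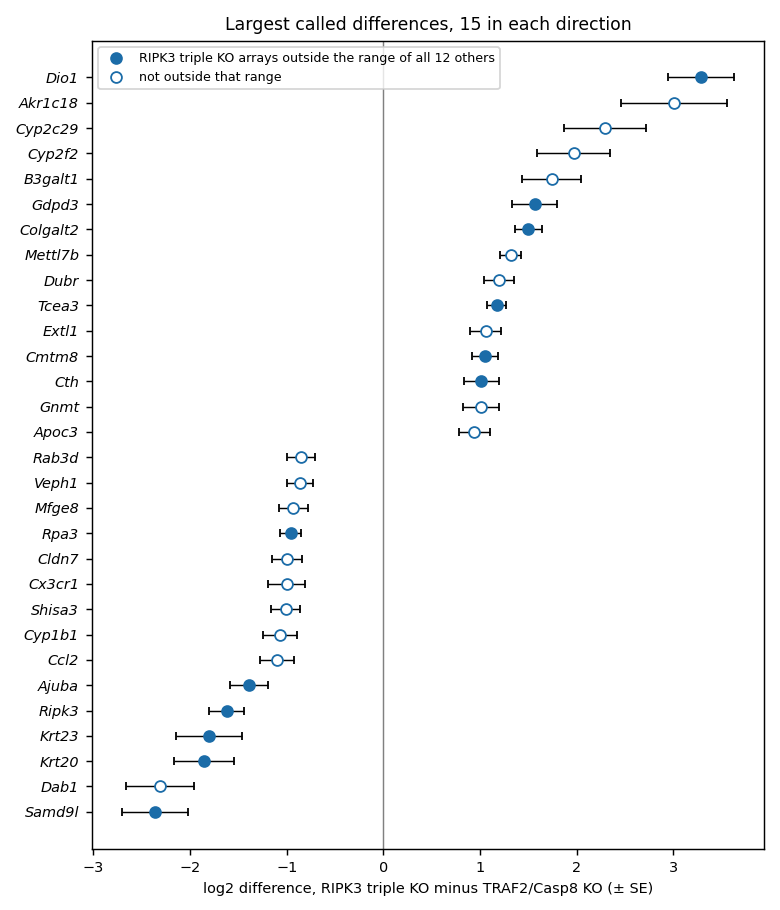
Log2 difference of the RIPK3-labelled minus the TRAF2/Casp8-labelled arrays (horizontal axis, with SE) for the 15 largest rises and the 15 largest falls among genes that passed, leaving out predicted and clone-named genes. Filled points mark genes whose 4 RIPK3-labelled arrays lie outside the range of the 12 other arrays; differences run from −2.36 for Samd9l to 3.29 for Dio1.

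Promoters are shown for 4 of these genes: the adjacent keratin genes that fell together, and 2 rises that went past the other genotypes. Each is the 250 bases before the RefSeq start on GRCm38.p6, all on the minus strand: Krt20 at chr11:99438154-99438403, Krt23 at chr11:99493121-99493370, Cyp2c70 at chr19:40187287-40187536 and Dio1 at chr4:107307169-107307418. Capitals mark matches to 5 motifs searched on both strands: AP-1 (TGANTCA, in 6.75% of 32851 RefSeq promoters), HNF4 (CAAAGTCCA, 0.384%), C/EBP (TTGCNNAA, 9.56%), NF-κB (0.356%) and the interferon element ISRE (2.98%).
Krt20: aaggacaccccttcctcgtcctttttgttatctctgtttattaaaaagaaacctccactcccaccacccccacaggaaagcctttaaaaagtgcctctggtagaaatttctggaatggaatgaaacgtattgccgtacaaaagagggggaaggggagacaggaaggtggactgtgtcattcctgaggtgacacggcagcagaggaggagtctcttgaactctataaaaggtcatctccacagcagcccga
Krt23: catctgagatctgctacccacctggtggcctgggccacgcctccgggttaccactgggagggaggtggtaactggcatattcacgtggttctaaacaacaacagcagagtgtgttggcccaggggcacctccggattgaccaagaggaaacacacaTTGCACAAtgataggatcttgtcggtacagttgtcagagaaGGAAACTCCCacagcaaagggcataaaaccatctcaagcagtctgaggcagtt
Cyp2c70: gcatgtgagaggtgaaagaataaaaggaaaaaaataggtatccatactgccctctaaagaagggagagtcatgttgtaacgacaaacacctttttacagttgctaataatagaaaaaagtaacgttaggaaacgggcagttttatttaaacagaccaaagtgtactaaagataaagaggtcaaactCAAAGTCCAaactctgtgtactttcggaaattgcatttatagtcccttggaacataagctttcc
Dio1: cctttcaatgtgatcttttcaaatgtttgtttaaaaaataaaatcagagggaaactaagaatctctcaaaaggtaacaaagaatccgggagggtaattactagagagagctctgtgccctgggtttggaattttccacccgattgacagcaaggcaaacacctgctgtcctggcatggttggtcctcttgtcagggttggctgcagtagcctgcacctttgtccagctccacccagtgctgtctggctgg
Krt23 held a C/EBP match 94 bases and an NF-κB match 53 bases before its start, and Cyp2c70 an HNF4 match 64 bases before it. Krt20 and Dio1 held none. Among the largest rises and falls, 12 and 14 matched a RefSeq promoter. Beside those of Krt23, the matches in the 26 were an ISRE in Extl1 and one in Cldn7, and 0 of the 26 held an AP-1 or HNF4 match. A match is a description of these letters and not a measured binding site.

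Over all lists, 5 of 581 distinct measured genes rose and 9 fell, and the counts that follow stand against 0.181% of all genes called higher and 0.149% called lower. Genes of hepatocyte metabolism mostly lay above 0 with few passing. Of 16 measured genes of the urea cycle and amino acid breakdown, 0 passed, while all 16 lay above 0, with a median of 0.44 (0.35 to 0.56 with 1 array left out) against 0.00 for all genes. Against WT the list median was −0.46 in the TRAF2/Casp8-labelled and 0.05 in the RIPK3-labelled arrays. Tdo2, which opens tryptophan breakdown, read 8.24, 7.84, 9.17 and 6.58 against 9.35, 9.98, 10.35 and 9.24 (1.77, adjusted p = 0.17). Prodh, which opens proline breakdown, differed by 0.71 (adjusted p = 0.174). Of 21 drug-metabolising genes, Cyp2c29, Cyp2f2 and Cyp2c70 rose and Cyp1b1 fell (0.181% and 0.149% of all genes). Their median was 0.31, and 0.19 without TRAF2/Casp8-labelled replicate 4. Of 23 genes of bile acid synthesis, conjugation and transport, 0 passed and 20 lay above 0 (median 0.22, and 0.34 without RIPK3-labelled replicate 1). Cyp39a1 and Cyp27a1, hydroxylases of bile acid synthesis, differed by 0.78 (adjusted p = 0.131) and 0.61 (adjusted p = 0.182). Of 16 genes of the growth hormone and IGF axis, 0 passed and 12 lay above 0 (median 0.31). Serpina12, which encodes vaspin, read 6.17 to 6.94 against 7.07 to 7.47 (adjusted p = 0.296), far above the 3.09 to 3.92 of WT in both groups. Igfbp4, an IGF-binding protein, differed by 0.27 (adjusted p = 0.236).

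The zonation and thyroid lists each held 1 gene that passed. Cyp2c29 was the 1 of 18 pericentral genes to pass (median 0.13, and 0.07 without TRAF2/Casp8-labelled replicate 4), and Cyp2f2 the 1 of 15 periportal ones (median 0.22, but 0.14 without RIPK3-labelled replicate 3 and 0.33 without TRAF2/Casp8-labelled replicate 3). Dio1 was the 1 of 12 genes of thyroid hormone action to pass. The 11 others, which include hormone receptor, transporter and response genes, lay between −0.24 and 0.45. Of 23 secreted hepatocyte proteins Apoc3 passed, with 11 above and 12 below 0 (median −0.01). That median was above 0 after quantile normalisation, centring or array weights, and without RIPK3-labelled replicate 1 or TRAF2/Casp8-labelled replicate 1 or 2. Centring raised all differences by the same amount, so it did not move this list against all genes. Of 17 hepatocyte transcription factors 0 passed (median 0.02, and 0.09 without RIPK3-labelled replicate 1). Rxra and Nr1h3, nuclear receptors of lipid and bile acid metabolism, differed by 0.20 and 0.27 (adjusted p = 0.407 and 0.351). Of 16 conjugating enzymes 0 passed (median 0.10, but 0.03 without RIPK3-labelled replicate 3 and 0.18 without RIPK3-labelled replicate 4).

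Lipid genes mostly lay below 0. Of 19 genes of sterol and fatty acid synthesis 0 passed and 12 lay below 0 (median −0.24, and −0.13 without RIPK3-labelled replicate 3). Hmgcs1 and Srebf2, a sterol synthesis enzyme and the factor that controls the pathway, differed by −0.35 and −0.25 (adjusted p = 0.353 and 0.361). Of 20 genes of fatty acid oxidation 0 passed and 15 lay below 0 (median −0.13, but −0.08 without RIPK3-labelled replicate 4 and −0.20 without TRAF2/Casp8-labelled replicate 3). Pdk4, which spares glucose in fasting, differed by −0.64 (adjusted p = 0.253). Of 24 acute phase genes 0 passed (median 0.02, and −0.01 without RIPK3-labelled replicate 2). Among 21 unfolded protein and oxidative stress genes 0 passed, although the metallothionein genes Mt1 and Mt2, which bind zinc, read 9.76 to 11.48 and 8.56 to 11.12 in the RIPK3-labelled arrays against 11.11 to 12.15 and 10.35 to 12.11 (adjusted p = 0.232 and 0.244). Both were lower in the RIPK3-labelled arrays than in WT (−1.73 and −2.55, adjusted p = 0.00862 and 0.00964).

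**Figure D3:**
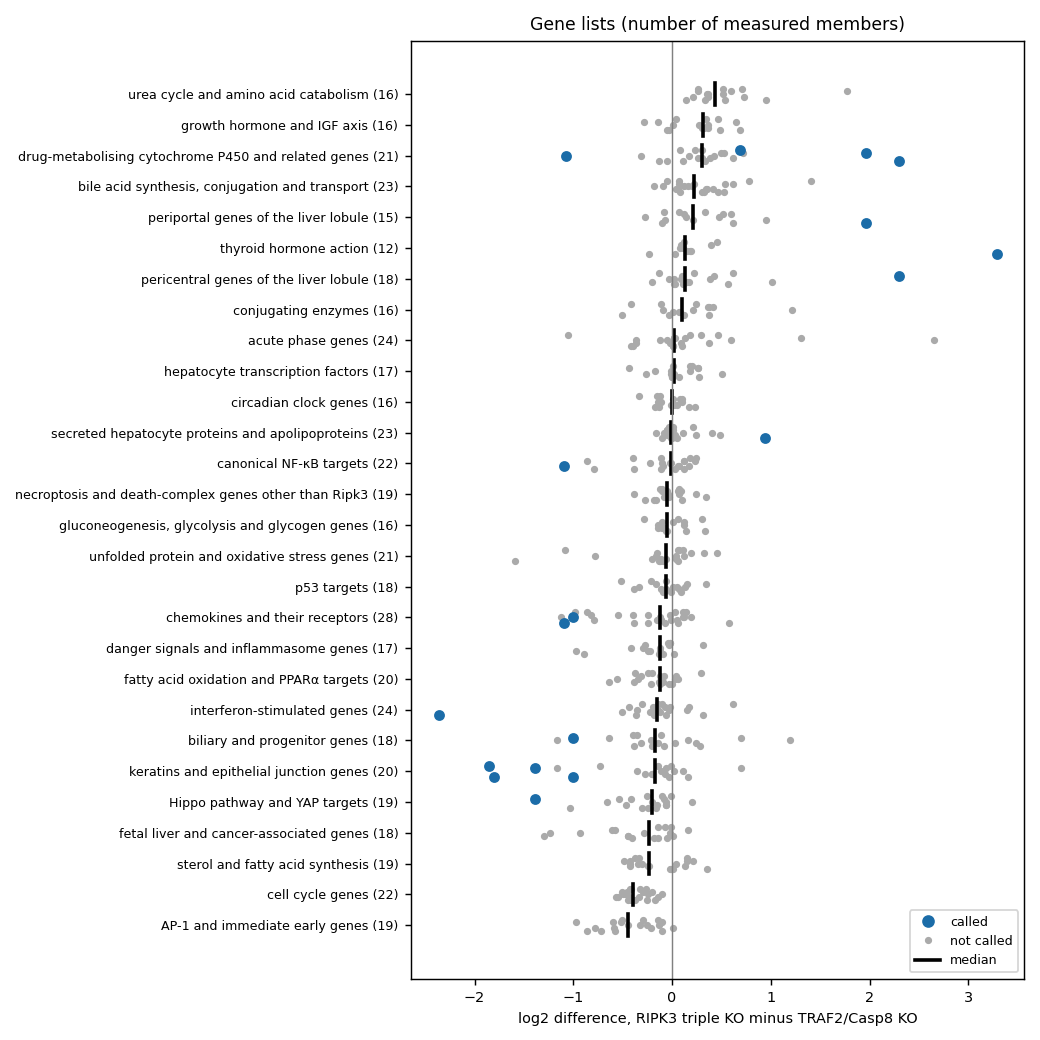
Log2 differences of the RIPK3-labelled minus the TRAF2/Casp8-labelled arrays (horizontal axis) for the members of 28 gene lists, 1 point per gene, with genes that passed in blue and the list median as a bar. Medians run from −0.45 (AP-1 and immediate early genes) to 0.44 (urea cycle and amino acid breakdown), and most members in either direction did not pass.

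Keratins and epithelial junction genes held the most falls of any list. Of 20, Krt20, Krt23, Ajuba and Cldn7 fell, against 0.149% of all genes, while 0 rose and 16 lay below 0 (median −0.17, and −0.12 without TRAF2/Casp8-labelled replicate 1). The lists were chosen with earlier results of these data known, so this count is no independent support. Krt20 and Krt23 are also adjacent genes, and Ajuba lies within 5 Mb of Ripk3. Ajuba was also the 1 of 19 Hippo pathway and YAP target genes to fall (18 below 0, median −0.21), and Cldn7 the 1 of 18 biliary and progenitor genes (median −0.17). None of the 19 AP-1 and immediate early response genes passed, and 18 lay below 0, with a median of −0.45 (−0.50 to −0.36 with 1 array left out). Against WT that median was 0.51 in the TRAF2/Casp8-labelled and −0.01 in the RIPK3-labelled arrays. Ier3, an early gene of stress and NF-κB signalling, read 5.92, 5.82, 5.26 and 6.2 against 5.0, 4.75, 4.71 and 5.31 (−0.86, adjusted p = 0.118), and it passed without TRAF2/Casp8-labelled replicate 3. Btg2, an inhibitor of proliferation, differed by −0.52 (adjusted p = 0.261). None of the 18 genes of fetal liver and liver cancer passed, and 16 lay below 0 (median −0.24, and −0.36 without RIPK3-labelled replicate 4). Dlk1, a fetal hepatoblast gene, read 6.57, 7.08, 6.92 and 7.15 against 6.01, 5.73, 5.81 and 6.45 (−0.93, adjusted p = 0.0705), and it passed without RIPK3-labelled replicate 4. All 22 cell cycle genes lay below 0 with 0 passing (median −0.40, from −0.43 to −0.29 with 1 array left out). Erythroid markers (median −0.61) and neutrophil and myeloid precursor markers (median −0.98) lay below 0 as well, and their part in the cell cycle values was not tested. Cdk1, the kinase of mitotic entry, differed by −0.57 (adjusted p = 0.361) and E2f1, a factor of S-phase entry, by −0.38 (adjusted p = 0.271). Of 18 p53 targets, 16 clock genes and 16 glucose metabolism genes 0 passed (medians −0.06, 0.00 and −0.05). With 1 array left out the p53 median ran from −0.10 to −0.02, and the signs of the clock and glucose medians changed.

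Apart from Ripk3, no gene of the necroptosis list passed. Of its 19 other genes, from the TNF receptor complex to MLKL, 7 lay above and 12 below 0, and the differences ran from −0.39 to 0.34 (median −0.05). The median was 0.00 after centring or without RIPK3-labelled replicate 1, and −0.09 without TRAF2/Casp8-labelled replicate 2. Centring raised the differences of all genes alike. Tnfrsf10b, a death receptor, differed by 0.34 (adjusted p = 0.546) and Tradd, an adaptor of the TNF receptor, by −0.16 (adjusted p = 0.586). Of 17 danger signals and inflammasome genes 0 passed and 15 lay below 0 (median −0.12, and −0.07 without RIPK3-labelled replicate 1). Aim2, a sensor of cytosolic DNA, read 6.73 to 7.04 against 6.35 to 6.58 (−0.42, adjusted p = 0.101), with no overlap.

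Canonical NF-κB targets held 1 gene that passed. Of 22, Ccl2 fell, 10 lay above and 12 below 0, and the median was −0.02. It was above 0 after quantile normalisation, centring or without dim probe sets, the lowest of 3 classes by mean signal. The same held without RIPK3-labelled replicate 2 or TRAF2/Casp8-labelled replicate 2 or 4. Centring raised the differences of all genes alike. Against WT the list median was 0.60 in the TRAF2/Casp8-labelled and 0.47 in the RIPK3-labelled arrays. Of 28 chemokines and their receptors, Ccl2 and Cx3cr1 fell (median −0.12, and −0.21 without TRAF2/Casp8-labelled replicate 2). Cx3cr1, the fractalkine receptor of monocytes, read 5.64, 5.35, 6.04 and 6.05 against 4.44, 4.77, 5.36 and 4.51 (−1.0 ± 0.19, adjusted p = 0.0445). RIPK3-labelled replicate 3 overlapped the first group, and of the 8 arrays only that one or TRAF2/Casp8-labelled replicate 2 could be left out without losing the call (up to 0.166 without any of the 6 others). It was also lost with array weights (0.0513). Of 24 interferon-stimulated genes Samd9l fell and 20 lay below 0 (median −0.15, and −0.07 without RIPK3-labelled replicate 4). Without Samd9l the lowest was at −0.51.

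Most markers of neutrophils, erythroid cells and T and NK cells lay below 0, and Gzma was the 1 of them to pass. RNA came from whole tissue, so fewer cells of a type and less RNA per cell cannot be told apart. All 15 measured neutrophil and myeloid precursor markers lay below 0, with 0 passing and a median of −0.98 (−1.28 without RIPK3-labelled replicate 4, −0.66 without TRAF2/Casp8-labelled replicate 4). Their mean signal was 6.05, 6.63, 6.88 and 7.73 in the RIPK3-labelled arrays and 7.24, 7.44, 7.77 and 8.43 in the TRAF2/Casp8-labelled ones, which overlap through RIPK3-labelled replicate 4, and 7.56 to 9.22 in WT. Chil3 and Mmp8, products of maturing neutrophils, differed by −1.28 and −1.08 (adjusted p = 0.32 and 0.351). Of 9 erythroid markers 7 lay below 0 (median −0.61, but −1.15 without RIPK3-labelled replicate 4 and −0.22 without TRAF2/Casp8-labelled replicate 4), with a mean signal of 5.66 to 7.54 against 6.16 to 7.64. Of 13 T and NK cell markers 11 lay below 0, and the list mean of 4.63 to 4.8 did not overlap the 4.91 to 5.12 of the TRAF2/Casp8-labelled arrays (median −0.33, and −0.21 without RIPK3-labelled replicate 2). WT lay at 4.53 to 5.11, across both groups. Against WT the list median was 0.24 in the TRAF2/Casp8-labelled and −0.05 in the RIPK3-labelled arrays. Gzma, a granzyme, read 5.24, 4.90, 5.15 and 5.49 against 5.70, 5.73, 5.91 and 5.91 (−0.62, adjusted p = 0.0383), and its call was lost without any array but RIPK3-labelled replicate 4 (up to 0.153), after centring (0.0646) or quantile normalisation (0.0724), and with trend and robust eBayes (0.0532). Of 16 macrophage and monocyte markers Cx3cr1 fell (median −0.07, but −0.21 without RIPK3-labelled replicate 4 and −0.0015 without RIPK3-labelled replicate 1), at 8.33 to 8.92 against 8.58 to 8.84. Hepatocyte markers read 12.66 to 12.98 against 12.74 to 12.90 on a scale that ends at 13.7. Cholangiocyte, stellate cell, endothelial, B cell and megakaryocyte, mast cell and eosinophil markers held 0 that passed (medians −0.08, −0.08, 0.06, 0.11 and −0.01). With single arrays left out the sign of the first and of the last 2 changed, and the stellate and endothelial medians ran from −0.10 to −0.03 and from 0.02 to 0.07. The falls of Ccl2, Cx3cr1 and Gzma and the danger signals below 0 stand beside these blood cell markers, whose part in them was not tested.

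**Figure D4:**
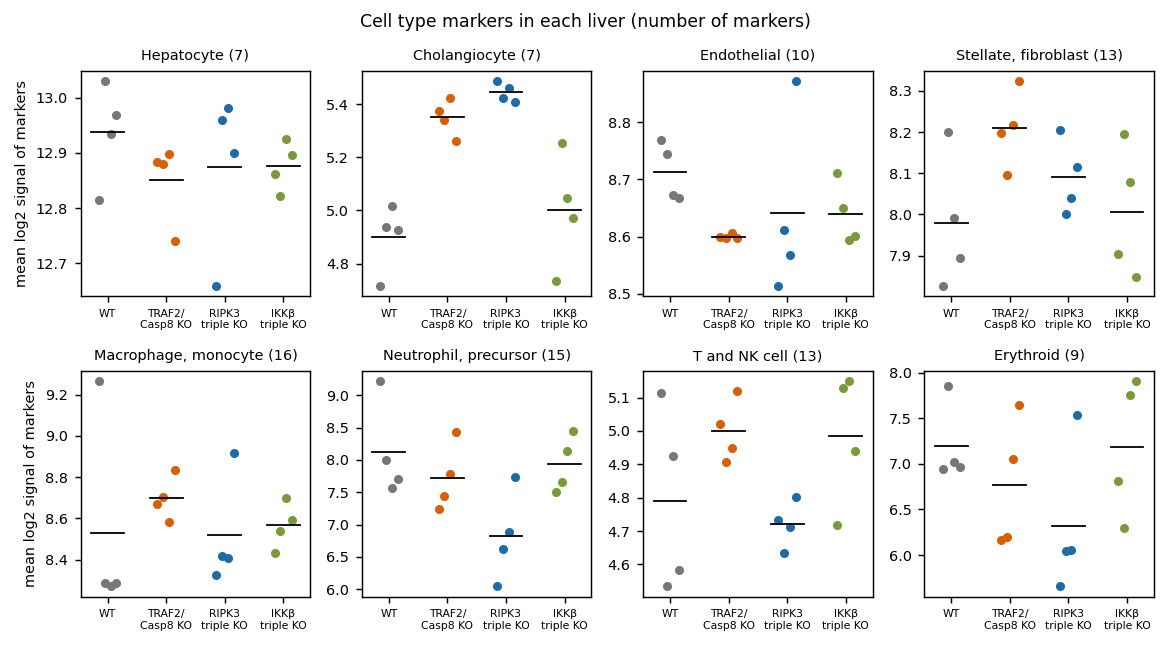
Mean log2 signal of 8 cell type marker lists (vertical axis, a separate scale in each panel) in each animal of the 4 labelled genotypes, with the group mean as a bar. The neutrophil panel shows 3 of the 4 RIPK3-labelled arrays below every other array, and RIPK3-labelled replicate 4 reads 7.73, inside the range of the other genotypes.

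Position on the chromosome was described because a constitutive deletion is bred in together with its surroundings. Within 5 Mb of Ripk3, 162 other genes were measured and 3 of them passed (1.85%, against 0.329% of all genes): Mmp14 (−0.47), Ajuba (−1.39) and Adcy4 (0.65). Adcy4, an adenylate cyclase and a direct neighbour of Ripk3, read 7.15, 7.03, 6.92 and 6.80 against 7.66, 7.54, 7.64 and 7.65 (0.65 ± 0.12, adjusted p = 0.0333), with no overlap. That call was lost without any array but TRAF2/Casp8-labelled replicate 1 (up to 0.14). The other neighbours measured, Cideb, Ltb4r1, Nfatc4, Nynrin and Cbln3, differed by −0.26 to 0.04 with adjusted p from 0.546 to 0.933. Mmp14, named after its value was seen, is a membrane metalloproteinase that cleaves collagen.

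**Figure D5:**
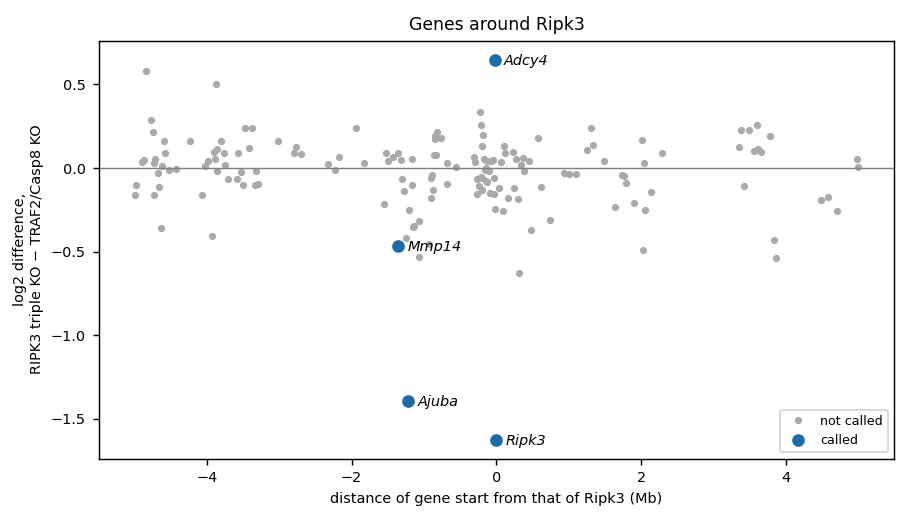
Log2 difference of the RIPK3-labelled minus the TRAF2/Casp8-labelled arrays (vertical axis) against the distance of each gene's start from that of Ripk3 in Mb (horizontal axis), for genes within 5 Mb. Ripk3, Ajuba, Mmp14 and Adcy4 passed, at −1.62, −1.39, −0.47 and 0.65. The other genes lie between −0.62 (Ctsg) and 0.58 (Pnp), some of them further from 0 than Mmp14.

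Chromosome 4 held 12 of the 62 genes (9 higher, 3 lower), 1.08% of its 1114 measured genes against 0.329% of all genes, and no other chromosome held more than 5. The members named here without values above were chosen after their positions were seen. Zdhhc18, Cep85, Extl1, Pafah2 and Tcea3 lie between 133604554 and 136274903 on GRCm38.p6, and all 5 rose (0.55, 0.69, 1.06, 0.87 and 1.17). In 4 of these 5, Extl1 being the exception, the RIPK3-labelled arrays lay outside all other arrays. Other pairs had starts 0.05 to 0.87 Mb apart. Krt20 and Krt23 on chromosome 11 both fell, and Cyp2c29 and Cyp2c70 on chromosome 19 both rose. Colgalt2 and Arpc5 on chromosome 1 went opposite ways (1.5 and −0.59). Wider gaps lay between others, such as Aqp7 and Gm3893 (1.06 Mb, both fell) and Gdpd3 and Prss8 (1.16 Mb, both rose). Dab1 and Dio1 (3.67 Mb) went opposite ways, and Samd9l and Rpa3 (4.88 Mb) both fell. The predicted gene Gm3893, a transcribed pseudogene also on chromosome 4, had the largest fall of the 62 genes (−3.18, adjusted p = 1.18e-06). Among probe sets that do not stand for a gene, the difference reached −3.39. Of the 94 probe sets 9 list it, and whether they also match other copies was not checked. Whether these positions reflect background strain was not tested.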

How the data were processed

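Whole-liver RNA of 16 mice (4 genotypes, 4 arrays each) was analysed from the deposited log2 values, which the authors made with RMA, per the submitters' processing notes. Its version and how probe sets were defined: not given in the sources used here. That the scale is log2 follows from the range of values, 0.892 to 13.7. The number of arrays limits the precision. Of 35556 probe sets, 21218 carry 1 gene symbol, 1881 several and 12457 none. The probe set with the highest mean stood for each of 18820 genes.

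R 4.3.3 and limma 3.58.1 fitted genotype means by lmFit and eBayes (two-sided) over all 16 arrays. Unless another setting or a left-out array is named, every adjusted p is from this model. All are Benjamini-Hochberg adjusted over every probe set in the fit, with 0.05 as threshold. The procedure was tested on simulated data. Animals differ between groups, so p-values measure the spread between animals.

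The genes compared and the lists were chosen with earlier results of these data known. The text names the 4 targeted genes, the 15 rises and 15 falls of greatest size that passed (without olfactory, vomeronasal, antigen receptor segment, small RNA, clone-named and predicted genes), up to 4 list members that passed or 2 as values where none did, and the 3 nearest neighbours of Ripk3 on each side. Alternatives were trend with robust eBayes, the 8 arrays alone, dropping dim probe sets (the lowest of 3 equal classes by mean signal), quantile normalisation, centring, array weights, testing a single probe set for each gene, a replicate block, plate row as a random block, and leaving out arrays in turn. Leaving out RIPK3-labelled replicate 4 was also listed after seeing the data. Positions and promoters are RefSeq's on GRCm38.p6. Python 3.11.15 with matplotlib 3.10.9 made the figures.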

Additional observations from a re-analysis of the deposited data

Results flagged for a closer look

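In 9 of 180 groups of 4 arrays tested (5%), 1 array lay far from the other 3, and by Dixon's critical value chance flags about 1 in 20 groups. Among genes that passed, TRAF2/Casp8-labelled replicate 2 read 6.61 for Samd9l (6.97 to 7.02 in the others), and RIPK3-labelled replicate 3 read 4.92 for Shisa3 (4.73 to 4.74). RIPK3-labelled replicate 3 read 11.56 for Igfbp4 (11.40 to 11.43). TRAF2/Casp8-labelled replicate 3 read 10.35 for Saa4, an acute phase apolipoprotein (9.92 to 9.98). RIPK3-labelled replicate 1 read 8.51 for Rora (8.83 to 8.87) and 12.94 for Alb (13.39 to 13.44). RIPK3-labelled replicate 4 read 7.28 for the endothelial gene Vwf (6.21 to 6.33) and 5.71 for the erythropoietin receptor gene Epor (4.88 to 4.92). RIPK3-labelled replicate 2 read 3.90 for Cbln3 (4.05 to 4.07).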

How the results depend on the processing

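The count of 94 probe sets (47 higher, 47 lower) moved with the model and with single arrays. Fitted on the 8 arrays alone it was 40 (20 higher, 20 lower), which leaves fewer residual degrees of freedom. Centring gave 77 higher, 1 probe set per gene 71 higher and array weights 72 lower; the cause was not tested. With 1 array left out the total ran from 39 to 117, the higher count from 16 to 57 and the lower count from 22 to 60. With a replicate block it was 62 (28 higher). Same-numbered animals of both groups correlated at −0.070 to 0.159, and the other pairs at −0.111 to 0.120. These few values cannot settle whether the numbers pair the animals. The replicate block lost the calls of Akr1c18, B3galt1, Apoc3, Krt23, Cyp1b1, Cx3cr1, Rab3d and Gzma. The plate row as a random block kept 94, but no row held arrays of both groups, so this setting cannot separate row from genotype. The fit on 8 arrays alone lost 19 of the 33 named genes that passed, but Ripk3, Dio1, Colgalt2, Mettl7b, Dubr, Tcea3, Extl1, Cmtm8, Dab1, Krt20, Krt23, Ajuba, Rpa3 and Cyp2c70 held. Of the 33, 15 held with each of the 8 arrays left out. Over all named genes and settings, 130 values lost and 6 gained a call. Among the 33 that passed 0 of 593 values changed sign, and among the 57 others 6 of 1026 did (Traf2, Alb, Cideb and Nynrin), none of them past the threshold.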

Other observations

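On the first principal component of the 8 arrays (23.99% of the variance) the RIPK3-labelled arrays lay at 10.5 to 43.1 and the TRAF2/Casp8-labelled ones at −34.5 to −14.4. On the second (17.64%), RIPK3-labelled replicate 4 lay at −50.0 and the 7 others at −9.0 to 16.1.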
